A study of Homo sapiens with 6 samples.

Results

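The control-only H3K9me2 regions are the stretches of DNA that were listed as carrying dimethylated lysine 9 of histone H3 in HCT116/Scrsh cells and that overlapped, by 1 bp or more, no region listed in HCT116/ABsh-1 cells. They were chosen by the presence or absence of a call in the lists of the 2 H3K9me2 libraries, and 7526 of the 11645 regions of HCT116/Scrsh cells met the rule. This is 64.6% of that list, a share that the rule itself fixes, and the remaining 4119 regions, here called shared, overlapped 1 of the 88855 regions of HCT116/ABsh-1 cells or more. HCT116 is an established human colorectal cancer cell line. HCT116/Scrsh cells received a scrambled control and HCT116/ABsh-1 cells an RNA interference construct against the demethylases KDM3A and KDM3B together, named siRNA in the sample labels and shRNA in the methods of the study. Chromatin was immunoprecipitated with an antibody against H3K9me2 or against KDM3B, and each antibody gave 1 library per cell population, beside 2 input libraries that were not analysed here. Nothing separates a difference between cell populations from one between single libraries, so every value below is a description of these lists with no test, and the 95% confidence intervals (Wilson) cover counting error only and take no account of neighbouring regions that belong together.

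H3K9me2 is written mainly by the methyltransferases EHMT1 and EHMT2 and removed by demethylases that include KDM3A and KDM3B. It is known as a mark of silent chromatin that covers wide domains of gene-poor, late-replicating DNA, often near the nuclear lamina, and it is typically absent from the start sites of active genes. The pericentromeric repeats carry mainly the trimethylated form. In these lists the mark appears as short regions built of 100-bp windows, so broad domains are seen only through the windows that passed the threshold within them.

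The sequences of the control-only regions with the highest scores are shown as examples of the members. The score is a whole number that the authors gave to each region, without a stated meaning, and it ranks regions within a list. For the 5 control-only regions with the highest score, the central 100-bp window is printed from the hg19 plus strand, with CG dinucleotides, the sites of DNA methylation, in capitals.
chr10:119850901-119851000: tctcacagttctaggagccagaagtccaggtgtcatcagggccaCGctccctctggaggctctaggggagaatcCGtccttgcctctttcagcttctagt
chr15:51542601-51542700: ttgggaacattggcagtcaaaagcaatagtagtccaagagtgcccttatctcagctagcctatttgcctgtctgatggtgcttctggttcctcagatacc
chr10:101060201-101060300: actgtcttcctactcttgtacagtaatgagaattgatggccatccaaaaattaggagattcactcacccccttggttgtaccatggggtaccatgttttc
chr2:70193401-70193500: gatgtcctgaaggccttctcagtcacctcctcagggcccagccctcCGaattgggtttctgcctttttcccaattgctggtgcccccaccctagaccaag
chr10:119853601-119853700: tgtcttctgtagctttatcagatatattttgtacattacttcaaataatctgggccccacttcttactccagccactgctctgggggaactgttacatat
These windows held 0 to 2 CG dinucleotides each and 40 to 58 G or C bases. The first and last lie in introns of the long non-coding RNA CASC2, the second in an intron of CYP19A1, the third between genes with CNNM1 as the nearest, and the fourth in an intron of PCBP1-AS1.

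For contrast, the central windows of the 3 shared regions with the highest score were as follows.
chr6:58776401-58776500: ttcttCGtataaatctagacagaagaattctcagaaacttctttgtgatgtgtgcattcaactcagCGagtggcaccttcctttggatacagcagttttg
chr1:145075701-145075800: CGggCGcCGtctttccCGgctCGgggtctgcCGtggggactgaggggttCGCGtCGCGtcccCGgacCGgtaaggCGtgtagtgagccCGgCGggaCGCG
chr9:68413601-68413700: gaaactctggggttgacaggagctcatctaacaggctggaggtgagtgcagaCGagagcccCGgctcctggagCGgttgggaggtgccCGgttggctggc
The first of them, with 40 G or C bases and 2 CG dinucleotides, falls within the range of the members above, lies close to the centromere gap of chromosome 6 and resembles alpha satellite, the tandem repeat of human centromeres. The second, at the start of PDE4DIP, held 17 CG dinucleotides, and the third, in the pseudogene DUX4L50, held 4.

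Control-only regions were poor in G and C compared with the shared regions. Their mean GC content was 46.7%, against 63.8% in shared regions, 61.4% in all regions of HCT116/ABsh-1 cells and 40.9% in the 28586281 assembled 100-bp windows of the genome. They held 1.22 CG dinucleotides per 100 bases on average, against 5.21 in shared regions and 0.975 in all windows, and 41% of them held none (95% interval 39.8 to 42.1). Of shared regions, 2.48% held none. The 5th and 95th percentiles of GC content were 32% and 64% in control-only regions, and 52% and 72% in shared regions. These ranges overlapped from 52% to 64%.

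**Figure D1:**
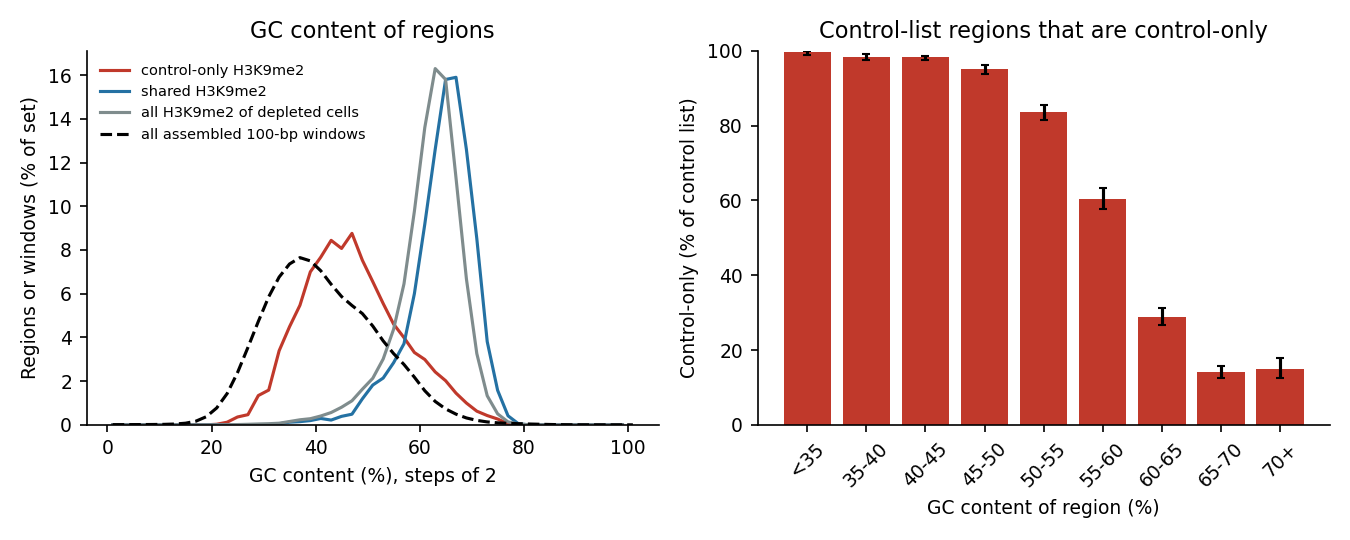
Left, share of regions or windows (y, % of set) by GC content (x, steps of 2 percentage points) for control-only, shared and all depleted-cell H3K9me2 regions and for all assembled 100-bp windows; right, share of the control list that was control-only (y, %) by GC content, with 95% Wilson intervals. The control-only curve lies between that of the genome and those of the other H3K9me2 sets, and the share falls from 99.6% under 35% GC to 14.1% at 65 to 70% GC.

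The share of the control list that was control-only followed GC content stepwise. Below 35% GC, 705 of 708 regions were control-only (99.6%, interval 98.8 to 99.9), and between 45% and 50% still 95.1%. Between 55% and 60% it was 60.5% (57.7 to 63.3), and between 65% and 70% it was 14.1% (12.5 to 15.8). Under 50% GC lay 64.7% of the control-only regions, 78.6% of all windows and 5.37% of the list of HCT116/ABsh-1 cells, which in that longer list is 4775 regions. Whether base composition of the libraries contributed was not tested.

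Width and score went with the same division. Control-only regions covered 949900 bp, with a mean width of 126 bp, and 81% were a single window. Shared regions had a mean width of 179 bp, and 58% were a single window. The median score was 12 in control-only and 16 in shared regions, with maxima of 119 and 377. Wider regions of the control list were less often control-only, from 71.8% of those of 100 bp to 18.3% of those of 500 bp or more, but 82.1% of the 28 regions of that width with under 50% GC were control-only, against 1.54% of the 130 with 60% GC or more.

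The distance to the nearest region of HCT116/ABsh-1 cells shows how far the members lay from the edge of the rule. The median was 19000 bp, 17.8% of members lay beyond 100 kb, and 507 members (6.74%) abutted such a region without overlapping it. These 507 had a mean GC content of 58.6% and 43% lay within 5 kb of a transcription start site (TSS). On the other side of the rule, the 2710 shared regions that overlapped by a single window had a mean GC content of 63.8% and a median score of 13, the same score as the abutting members. The 6381 members beyond 1 kb had a mean GC content of 45.2%. The farthest was chr3:20176601-20176800 in an intron of KAT2B, a histone acetyltransferase gene, at 1690700 bp from the nearest region of HCT116/ABsh-1 cells.

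Along the chromosomes the members were unevenly spread. Per assembled Mb, chromosome 15 held 6.13, chromosome 9 held 5.34 and chromosome 22 held 4.53, while the X chromosome held 1.27, chromosome 7 held 1.28 and chromosome 19 held 1.43. The lowest score of a single-window region in the control list differed between chromosomes, from 11 on chromosome 8 and 10 on chromosomes 2 to 7 to 6 on X and 2 on Y. Across the 22 autosomes, which share 1 library, the density and this lowest score were related with a Pearson r of -0.57 and a Spearman rho of -0.503. With only members of a score of 11 or more, a limit chosen after the data were seen as the highest of these lowest scores, r was -0.0706 and rho -0.2, and 5377 members were left. Chromosome 8 then held the most at 3.65 per Mb, followed by chromosomes 15 (3.48), 17 (3.32), 9 (2.91) and 10 (2.81). X fell to 0.185 and Y to 0.087, from 4.39. The limit equals the lowest score on chromosome 8, so it removed none of the 521 members there. It left 284 of 501 on chromosome 15, 28 of 192 on X and 2 of 101 on Y. The order of chromosomes at this score therefore depends on the limit, and whether scores compare between chromosomes is unknown.

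**Figure D2:**
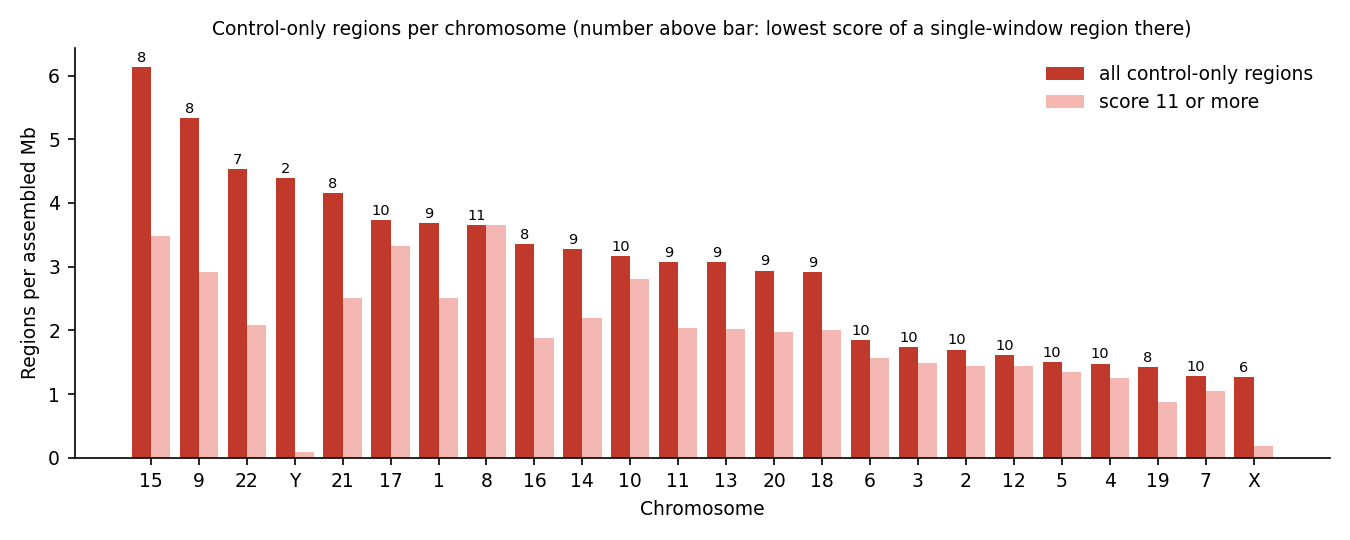
Control-only regions per assembled Mb (y) on each chromosome (x), for all members and for members with a score of 11 or more; the number above each pair is the lowest score of a single-window region on that chromosome. Chromosome 15 is highest over all members at 6.13 and chromosome 8 at the common score at 3.65, a limit that equals the lowest score on chromosome 8 and removes no member there.

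Relative to the control list itself, the share of regions that were control-only ran from 33.9% (28.2 to 40.2) on chromosome 19, 41.6% on chromosome 22 and 45.5% on chromosome 17 to 84.6% (79.3 to 88.7) on X and 90.2% (83.3 to 94.4) on Y. Chromosomes 19, 22 and 17, which are known as gene-rich, had mean GC contents of 53.3%, 50.8% and 48.5% in their members. Chromosome 17 did not stand out in this. The members of chromosomes 21 and 16 had 49.7% and 49.1%. Those of chromosome 20 also had 48.5%, at a control-only share of 61%.

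Within some chromosomes the density changed in steps. For each chromosome, the boundary of 10-Mb bins with the largest difference in density between its sides was sought, with 15 Mb or more of assembled bases on each side. Of the 22 chromosomes long enough, the difference was over 4-fold on 4 (chromosomes 8, 21, 17 and 10) and 3- to 4-fold on 3 (chromosomes 12, 5 and 16), and on chromosome 12 the distal side was the sparser one. The segments below were set by eye from the same bins. On chromosome 8, 50 members lay in the first 70 Mb (0.748 per assembled Mb) and 471 in the rest (6.2 per Mb), an 8.29-fold difference. The same division gave 2.31-fold for shared regions, 2.32-fold for the regions of HCT116/ABsh-1 cells and 1.61-fold for the KDM3B regions of HCT116/Scrsh cells. The members of this distal segment had a mean GC content of 43.8%, and among members under 50% GC the difference was 11.7-fold. On chromosome 10, the segment from 100 to 130 Mb held 8.32 members per Mb against 1.67 before it, a 5-fold difference that was 6.34-fold for shared and 2.09-fold for KDM3B regions. On chromosome 17, 6.12 members per Mb lay beyond 40 Mb against 1.06 before it, which is 5.76-fold for members, 6.19-fold for shared and 1.51-fold for KDM3B regions. On chromosome 21, 129 members lay beyond 30 Mb (7.16 per Mb) and 17 before it (0.995 per Mb), a 7.2-fold difference, while shared regions numbered 132 and 1 and KDM3B regions differed 5.69-fold. On chromosome 16, the part beyond 80 Mb held 9.37 members per Mb against 2.45, but there the shared regions differed more, by 8.65-fold, than the members, by 3.83-fold. These boundaries were chosen after the values were seen. As background, published karyotypes of HCT116 include gained segments of 8q, 10q and 17q. Copy number was not measured in these data and its part in the densities was not tested. All 5 of these segments were denser in every list, and least so for the KDM3B regions of HCT116/Scrsh cells. The choice by eye left out chromosomes 12 and 5, whose scanned differences of 3.7- and 3.4-fold exceeded that of chromosome 16 (3.27-fold). On chromosome 5 the sparser side includes the bin from 20 to 30 Mb. That bin held no member, no shared region, no region of HCT116/ABsh-1 cells and no KDM3B region of HCT116/Scrsh cells. The lists parted on chromosome 12. Its bins beyond 110 Mb held 0.6, 0.402 and 0.534 members per Mb, against 1.61 in the bin before. Regions of HCT116/ABsh-1 cells there rose from 12.8 to 29.2, 43.4 and 111 per Mb. Shared regions there stood at 0, 0.101 and 1.07 per Mb, against 0.704 in the bin before. Such a parting was not particular to chromosome 12. The first 10 Mb of chromosome 7 held 0.302 members and 114 regions of HCT116/ABsh-1 cells per Mb.

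**Figure D3:**
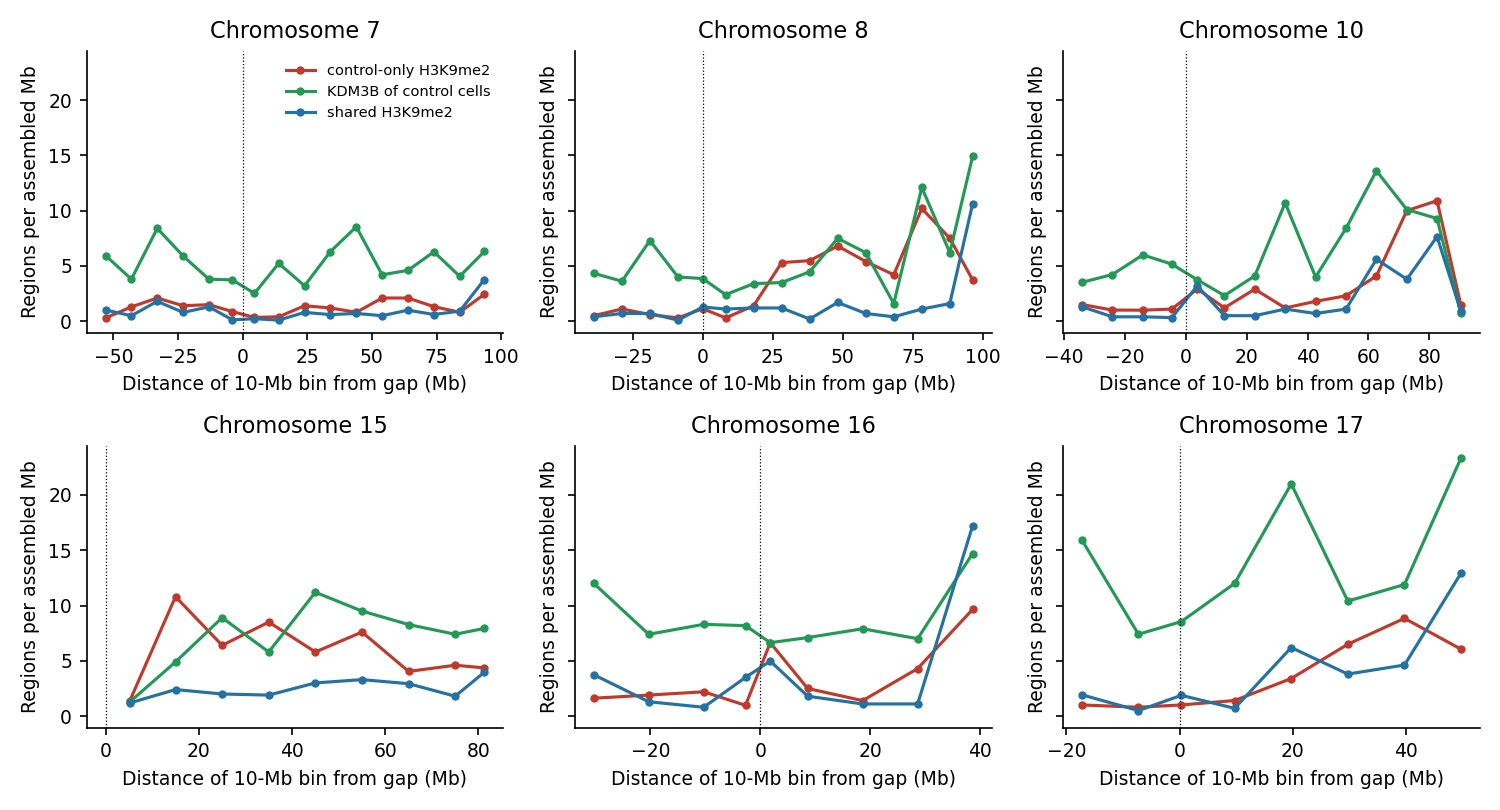
Regions per assembled Mb (y) in 10-Mb bins of 6 chromosomes, by distance of the bin from the centromere-bearing gap in Mb (x; negative is the short arm, dotted line the gap), for control-only H3K9me2, shared H3K9me2 and KDM3B regions of control cells. Control-only density stays under 3 per Mb along chromosome 7 and is higher toward the distal part of the long arms of chromosomes 8, 10 and 17.

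By chromosome arm outside Y, 9q held the most at 6.14 members per Mb, followed by 15q (6.13), 8q (4.96) and 17q (4.88). At the common score these 4 arms held 3.41, 3.48, 4.96 and 4.41. The fewest lay on 8p (0.663) and 17p (0.816). On Y, Yp held 6.53, above 9q, but 0.136 at the common score. Over 298 bins of 10 Mb outside Y the median was 1.92 members per Mb, 5 bins held none, and the highest value was 10.9, at 120 to 130 Mb of chromosome 10. The bin from 30 to 40 Mb of chromosome 15 followed with 10.8.

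Nearness to the centromeres was measured as the distance to the 27 assembly gaps of 1 Mb or more in hg19, which hold the centromeres, the short arms of the acrocentric chromosomes and the heterochromatin of Yq. Within 5 Mb of such a gap lay 402 members (5.34%, 4.86 to 5.87), less than the 7.57% of assembled bases found there. Shared regions stood at 6.75% (6.02 to 7.56) and the regions of HCT116/ABsh-1 cells at 5.16%. Within 1 Mb the members were again below the assembled share, at 1.04% against 1.53%, and 36 of these 78 members lay on Y. Without Y the share was 0.566% against 1.44%, a ratio of 0.393, beside 0.395 for the regions of HCT116/ABsh-1 cells. Only the innermost 100 kb held more than its share, with 26 members (0.345%, 0.236 to 0.506) against 0.17% of assembled bases, a ratio of 2.04. Of these 26, 11 lay on Y. Without Y the ratio was 1.27, from 15 members, and the interval of 0.122% to 0.333% held the assembled share of 0.159%. The ratio for the regions of HCT116/ABsh-1 cells without Y was 0.327.

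The Y chromosome carried much of what lay near gaps. It held 101 members, 85 of them within 5 Mb of a gap, and 93 of the 101 had a score of 5 or less. The member nearest to any gap was chr19:27732501-27732600, 718 bp from the gap with a score of 75, and its sequence resembles alpha satellite.
chr19:27732501-27732600: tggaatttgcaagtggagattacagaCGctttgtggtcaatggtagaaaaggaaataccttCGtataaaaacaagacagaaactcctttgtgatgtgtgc
Next came chr21:11186601-11186700 at 1429 bp with a score of 26, a member that also overlapped a KDM3B region, and chr20:26317601-26317700 at 1869 bp. The gaps of chromosomes 1, 3, 6, 9, 12, 13, 14 and 22 had no member within 1 Mb. At the other end of the arms, 6.83% of members (6.28 to 7.42) lay within 5 Mb of a chromosome end, against 24.8% of shared regions (23.5 to 26.1). At 60% GC or more the shares were 19% and 26%, and between 50% and 60% GC they were 8.91% and 21.5%. Under 50% GC they were 3.94% (3.43 to 4.52) and 9.45% (5.49 to 15.8). The share of assembled bases near chromosome ends was not computed.

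Members stood mostly alone. At a spacing of less than 10 kb, 5840 of them (77.6%) had no other member beside them, and 500 (6.64%, 6.1 to 7.23) fell into 150 clusters of 3 or more. Shared regions were in such clusters in 12.2% of cases, and their largest held 14 regions against 7 for the members. Chromosome 8 held 21 clusters, chromosome 15 held 18 and chromosome 9 held 16, while chromosomes 4, 22 and X held none.

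The largest cluster, chr15:48942401-48970500 (hg19), placed 7 members with scores of 9 to 42 in 28.1 kb upstream of FBN1, the gene of the microfibril protein fibrillin, across the divergent transcript FBN1-DT. No region of HCT116/ABsh-1 cells lay inside it, and the nearest was 3800 bp from a member. The next, chr8:131596501-131624700, held 6 members over no protein-coding gene, 154680 bp from the nearest protein-coding start site, that of ASAP1. Five-member clusters lay 14163 bp from the start of ADRA2A (an adrenergic receptor gene), 38638 bp from MBNL2 (a splicing regulator), in the last part of WDR7 next to the long non-coding RNA LINC-ROR, 52721 bp from CFAP418, across NPY4R2 and NPY4R, 46045 bp from POLR2M and inside CYP19A1. They differed in how empty the list of HCT116/ABsh-1 cells was around them. The cluster at MBNL2 had no region of those cells within 59900 bp of any member and the one at CFAP418 none within 95200 bp, whereas those at NPY4R and WDR7 enclosed 5 and 4 such regions. NPY4R2 and NPY4R have the same coordinates in the annotation used, so the same members are counted under both names.

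The cluster of 4 members that covered the most bases held the member with the highest score. At chr10:119850001-119854000, in CASC2, 4 members covered 1700 bp of 4 kb, with scores from 12 to 119. The member chr10:119850501-119851400 had both the highest score, 119, and the greatest width, 900 bp, and lay 24700 bp from the nearest region of HCT116/ABsh-1 cells. Of the next widest, chr16:72292201-72293000 (800 bp, score 77) lay in LINC01572, chr15:51542301-51543000 (700 bp, score 96) in CYP19A1, and chr9:91674401-91675100 (700 bp, score 73) in SHC3, an adaptor protein gene.

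In their shares within 5 kb of a TSS, in introns, in intergenic DNA and upstream of a TSS, control-only regions were much as the genome. A TSS lay within 5 kb of 27.6% of members (26.6 to 28.6), where 26.9% of assembled bases lay that near, and within 500 bp of 5.1% of members, against 4.14% of assembled bases. For shared regions the 2 shares were 53.9% (52.4 to 55.4) and 21.8%. Introns held 49.3% of members and 50% of assembled bases, intergenic DNA 34.3% and 35.2%, and the 3 kb upstream of a TSS 10.5% and 10.8%. Coding exons held 1.99% of members (1.7 to 2.33) against 0.884% of assembled bases and 13.3% of shared regions. Other exons held 3.93% of members (3.52 to 4.4) against 3.08% of assembled bases. Around start sites of protein-coding genes, members were sparser than farther away. The 2-kb steps from 4000 bp before to 12000 bp after held 1.35% to 1.75% of the counts within 50 kb. The outermost steps held 2.26% upstream and 2.1% downstream.

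**Figure D4:**
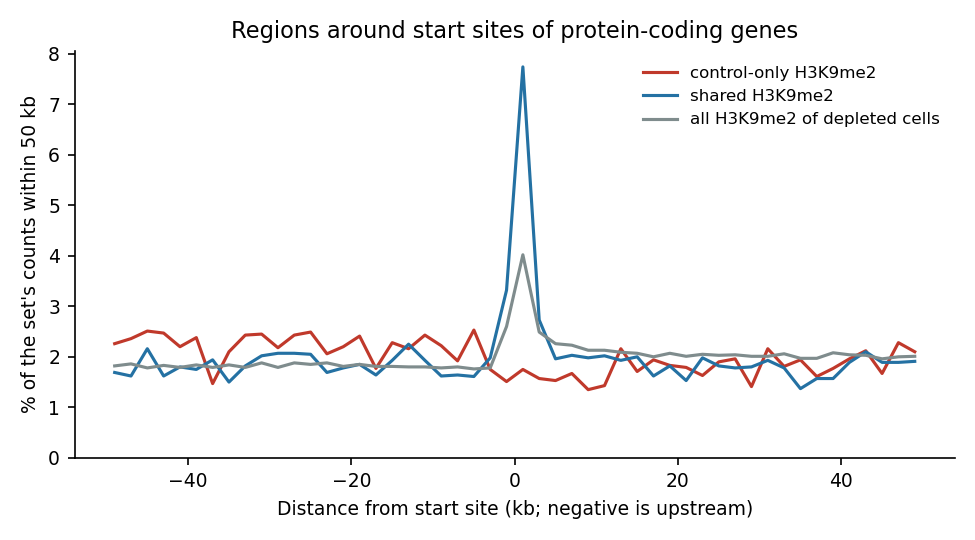
Share of each set's counts within 50 kb (y, %) by distance from the start sites of protein-coding genes in steps of 2 kb (x, kb, negative upstream). Shared regions peak at 7.74% in the 2 kb after the start site, all regions of depleted cells at 4.02%. Control-only regions are at 1.75% there with no peak, and are lowest at 1.35% from 8000 to 10000 bp after it.

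The contrast at start sites was smaller among regions of like GC content. At 60% GC or more, 44.6% of the 847 members (41.3 to 48) and 56.6% of the 3312 shared regions (54.9 to 58.3) lay within 5 kb of a TSS. Between 50% and 60% the shares were 30.8% and 44.9%. Below 50% they were 23.4% of 4872 members and 32.3% of 127 shared regions, with intervals of 22.3 to 24.7 and 24.8 to 40.8. In the 2 kb after the start sites of protein-coding genes, members numbered 4.33 per 1000 genes and shared regions 21.8.

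A member lay no farther than 5 kb from a TSS of 906 of the 20163 protein-coding genes (4.49%), and 668 of the 906 (73.7%) also had a region of HCT116/ABsh-1 cells there, as 49% of all protein-coding genes did. A KDM3B region of HCT116/Scrsh cells lay in the same window in 30.8% of the 906 genes and 34.8% of all.

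Counted over gene bodies with 5 kb upstream, 2149 genes (10.7%) held a member, 1424 of them a single one, and these genes were long, with a median of 116 kb against 27.2 kb for all. Per Mb of gene, members were about as frequent in genes under 10 kb (2.33) as in those over 500 kb (2.02), while shared regions fell from 7.72 to 0.527 per Mb.

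GLIS3, which encodes a zinc finger transcription factor of pancreatic beta cells, and RUNX1, a transcription factor of blood cell development, held the most, 18 each. They differed in density, at 3.4 members per 100 kb in GLIS3 and 1.47 in the longer RUNX1. GLIS3 held no shared region and 9 regions of HCT116/ABsh-1 cells, and RUNX1 held 3 and 18. CYP19A1, the gene of aromatase, which converts androgens to oestrogens, held 14 members at 10.3 per 100 kb. This was the highest density among the 10 genes with the most members. CYP19A1 also held 3 shared regions and 9 of HCT116/ABsh-1 cells. ALDH1A2, a retinoic acid synthesis gene, held 14 members at 2.55 per 100 kb. PDE4DIP, which encodes an anchor of a phosphodiesterase at the Golgi and centrosome, held 14 members beside 6 shared regions and 21 of HCT116/ABsh-1 cells. FGGY, a carbohydrate kinase gene, held 13, EXT1, which encodes an enzyme of heparan sulfate synthesis, and THSD4, a gene of a microfibril-associated protein, held 12 each, NCALD, a calcium sensor gene, 11, and 7 genes held 10, among them the formin gene FMN1, which comes first by name.

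Among the gene lists, few genes carried a member near a start site, and the intervals held the 4.49% of all protein-coding genes for every list but 2, the ZNF and olfactory receptor genes. Of 31 Wnt target genes, 1 did (3.23%, 0.572 to 16.2), namely JUN, a subunit of the transcription factor AP-1, with 1 member, 2 regions of HCT116/ABsh-1 cells and 1 KDM3B region in the window. MMP7, NRCAM and TIAM1 each held 1 member in the gene body only. In HCT116/ABsh-1 cells, 21 of the 31 had an H3K9me2 region near a start site.

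Of 22 genes for enzymes and readers of H3K9 methylation, 1 had a member near a start site (4.55%), namely KDM4C, a demethylase of trimethylated and dimethylated H3K9. It held 3 members near start sites and 8 over its body, beside 12 regions of HCT116/ABsh-1 cells. PHF2 held 2 and JMJD1C 1 in the body, and KDM3A and KDM3B held none.

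Among the gene families, 8 of 515 ZNF zinc finger genes (1.55%, 0.789 to 3.03) and 4 of 415 olfactory receptor genes (0.964%, 0.375 to 2.45) had a member near a start site, with intervals that end below 4.49%. These families were also low in the list of HCT116/ABsh-1 cells, at 32% and 5.78% against 49% of all protein-coding genes. Families with many copies are uncertain because reads with several positions were dropped. None of 53 clustered protocadherin genes and none of 36 GOLGA genes did, which allows shares of up to 5.66% and 8.33% by the rule of 3 counts. HOX genes had 3 of 39, HOXB1, HOXD11 and HOXD12, keratin-associated protein genes 5 of 94, beta-defensins 2 of 40, histone genes 2 of 69, and POTE (POTEA), NBPF (NBPF15) and ANKRD (ANKRD30BL) genes 1 each of 13, 14 and 58.

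Few members held 50-base words with an exact copy elsewhere in hg19, which the mapping largely fixes in advance because only uniquely placed reads were kept. No annotation of repeats was used, so repeats whose copies differ in sequence were counted only in part. The share of unique 50-base words was not computed for all assembled windows. A read can be placed in these lists only where its position is unique, so the share of 50-base words found once in hg19 on either strand was computed for each region. In 98.1% of members all such words were unique, and in 17 members (0.226%, 0.141 to 0.361) under 50% were. The shared regions stood at 97.7% and 0.146% (0.0668 to 0.317). By a looser measure, 7.68% of members had 50% or more of their 16-base words in 10 or more copies (7.1 to 8.3), against 2.94% of shared regions and 28.8% of all assembled windows. Members within 1 Mb of a gap held a repeated 50-base word in 35.9% of cases, against 1.49% of those beyond 5 Mb. For shared regions the 2 shares were 26.9% and 1.85%. Of the 78 members within 1 Mb of a gap, 36 lay on Y.

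Short motifs were counted on both strands of the single-window regions. At least 6 CA units in a row stood in 0.804% of members, 1.34% of shared regions and 0.498% of all windows. A run of 10 or more A stood in 0.722% of members, 0.0419% of shared regions and 3.29% of all windows. The GC-box letters GGGCGG were in 2.8% of members (2.42 to 3.25), 15.8% of shared regions (14.4 to 17.3) and 1.51% of all windows. A pair of GGAAT units, the repeat of satellites II and III, occurred in 4 members and in 0.0634% of all windows, and a pair of TTAGGG telomere units in no member, which allows up to 0.0492%. CTTTGAA, the core letters bound by TCF factors, stood in 1.82% of members (1.51 to 2.19), 0.586% of shared regions (0.349 to 0.981), 0.76% of the regions of HCT116/ABsh-1 cells and 2.55% of all windows.

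Counted per region, the share of members that overlapped KDM3B was close to that of the other H3K9me2 sets. In HCT116/Scrsh cells 12 members overlapped a KDM3B region (0.159%, 0.0912 to 0.279), and in HCT116/ABsh-1 cells 1 did. The shared regions stood at 0.17% (0.0823 to 0.35) for HCT116/Scrsh cells, with overlapping intervals, and the whole list of HCT116/ABsh-1 cells at 0.106% (0.0865 to 0.129). The KDM3B regions of HCT116/Scrsh cells covered 0.112% of assembled bases. Mean widths were 126 bp for members, 179 bp for shared regions and 311 bp for the list of HCT116/ABsh-1 cells. Wider regions can overlap more easily, and neither the shares nor this coverage were compared at equal width. The median distance from a member to the nearest KDM3B region was 58000 bp, against 35100 bp from a shared region, and 10.9% of members (10.2 to 11.6) and 17.8% of shared regions (16.7 to 19) had one within 10 kb. The 12 members were single or double windows with scores of 4 to 26, and 3 each lay on chromosome 21 and on Y. The others included one each in introns of OXR1, CTIF and ZCCHC14-DT.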

How the data were processed

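Each of the 2 HCT116 populations gave 1 ChIP-seq library for H3K9me2 and 1 for KDM3B. Per the study's methods, 50-base reads were mapped to hg19 with Bowtie, reads with a unique position were kept and counted once per position, and 100-bp windows were called where ChIP exceeded input by a Poisson test. The 4 lists deposited by the authors give positions and a whole-number score of unstated meaning (lowest value 2). The score served for ranking inside a list and, at 11 or more, as a common limit across chromosomes. Read depth is unknown.

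Control-only regions overlapped no region of HCT116/ABsh-1 cells by 1 bp. Distances were taken to gaps of 1 Mb or more, to other lists and to TSSs (region centres) of GENCODE release 44 on hg19 (254376 transcripts, 20163 protein-coding genes). Promoters were the 3 kb upstream of a TSS, before exons, introns and intergenic DNA. Clusters were 3 or more members less than 10 kb apart. GC content and word copies came from hg19. Named genes belong to the 10 largest clusters (ties by covered bases), the 5 highest-scoring and 5 widest members, the 10 protein-coding genes with the most members (ties by name) and the gene lists; others (members at the edge of the rule, nearest gaps or overlapping KDM3B) were chosen after their values were seen. The members and the gene lists were chosen with earlier results of these data known. With 1 library per condition no test was made. A gene and a sequence are not reported here. Functions were tested on simulated data. Python 3.11.15, numpy 2.4.6, pandas 2.3.3, scipy 1.17.1, numba 0.67.0 and matplotlib 3.10.9 were used. Alternatives were other distances, merged regions, score subsets, a shortened list of HCT116/ABsh-1 cells and a common lowest score.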

Additional observations from a re-analysis of the deposited data

How the results depend on the processing

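The count of 7526 control-only regions was 6381 without those within 1 kb of a region of HCT116/ABsh-1 cells, 4585 without those within 10 kb, 7104 after merging, 9932 against the 11645 highest-scoring regions of HCT116/ABsh-1 cells, 3332 among the control list's regions at or above its median score and 5377 with a score of 11 or more. The share near a large gap (5.34%) was 4.08% at or above the median score, 4.09% at the common score, 2.27% within 2 Mb and 1.04% within 1 Mb. The share in clusters (6.64%) was 5.53% beyond 1 kb, 2.88% at or above the median score, 4.51% after merging, 4.85% at the common score and 28.8% at a spacing of 50 kb. The share near a TSS (27.6%) was 25.1% beyond 1 kb, 29% at or above the median score, 14% within 2 kb and 13.6% for protein-coding genes. The share with under 50% of 50-base words unique (0.226%) was 0.06% at or above the median score, 0.093% at the common score and 1.06% at the 90% limit. The share overlapping KDM3B (0.159%) was 0.0784% beyond 1 kb, from 5 members. Genes with a member near a TSS fell from 906 to 450 within 2 kb. The number of chromosomes with 1.5 times their assembled share of members or more was 5, and 0 per region of the control list. Mean GC content (46.7%) was 45.2% beyond 1 kb and 47.4% at or above the median score. The cause of these differences was not tested, apart from narrower limits and fewer regions giving smaller counts. The common score and the alternatives for GC content were chosen after seeing the data. No paired analysis was possible because each condition had 1 library. Read depth was unknown, so regions under the calling threshold of HCT116/ABsh-1 cells cannot be told from regions without the mark.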
